A study of Caenorhabditis elegans with 15 samples.

Results

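The genes described here are 8 C. elegans germ granule genes, out of 46934 gene IDs in the deposited table: pgl-1, pgl-3, glh-1, glh-2, glh-3, glh-4, cgh-1 and car-1. They were chosen by name, as genes for P granule scaffold proteins, P granule helicases and a pair of repressor proteins of germline mRNA particles. The table gives WormBase IDs only, and the names of the 8 IDs come from that choice. The study asked which mRNAs are held by IFE-1 and IFE-3, paralogs of the cap-binding translation factor eIF4E. Its readout was RIP-seq, in which a tagged protein is pulled down on beads and the RNA bound to it is sequenced.

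RNA came from whole worms of 3 strains, grown for 3 days at 20 °C, in 15 libraries that form 5 groups of 3 biological replicates. IFE-1 RIP is RNA on RFP trap beads from strain KX155, which carries mKate::ife-1 on chromosome III and GFP::ife-3 on chromosome V, both made by CRISPR. IFE-3 RIP is RNA on GFP trap beads from the same strain. mKate control RIP is RNA on RFP trap beads from strain LP307, which has mKate::PH inserted on chromosome II and for which the labels list no tagged eIF4E. GFP control RIP is RNA on GFP trap beads from strain LP306, with GFP::PH inserted on chromosome II. Total RNA is unenriched RNA of strain KX155, so both tags are present in it as well as in both IFE RIPs. Worm age beyond the days of growth is not given in the labels, and whole worms mix germline with all other tissues. Fewer germ cells and less of an RNA per germ cell cannot be told apart in such samples.

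P granules are condensates of RNA and protein at the outer face of germ cell nuclei and, in early embryos, in the cytoplasm of germline precursors. PGL-1 and PGL-3 are self-associating scaffold proteins that build them. The GLH proteins are DEAD-box RNA helicases related to Vasa, of which GLH-1 helps to keep PGL proteins at the nuclear envelope. CGH-1, the DDX6 relative, and CAR-1, the LSM14 relative, bind each other and hold maternal mRNAs in repressed particles in the gonad. IFE-1 is itself known as a P granule protein that binds PGL-1. The measurements below concern the mRNAs of these proteins, not the proteins.

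By name, all 8 genes were found in the RefSeq gene table of WBcel235, the build in the submitters' processing notes. pgl-1 (WBGene00003992) lies on chromosome IV from 6974442 to 6977318, and pgl-3 (WBGene00003994) on chromosome V from 4755979 to 4758587. The 4 glh genes lie on chromosome I: glh-1 (WBGene00001598) from 6854478 to 6857536, glh-2 (WBGene00001599) from 6513928 to 6517507, glh-3 (WBGene00001600) from 5792321 to 5795114 and glh-4 (WBGene00001601) from 3727027 to 3731179. cgh-1 (WBGene00000479) lies on chromosome III from 7495320 to 7497832, and car-1 (WBGene00012484) on chromosome I from 12904470 to 12906040. All are protein-coding, and pgl-1 and pgl-3 have 2 RefSeq transcripts each while the other 6 have 1. None overlaps another protein-coding gene, which matters because the libraries were not strand-specific. The only overlap is a snoRNA gene of 78 bp within cgh-1. No other gene of the table had the same values as a member in all libraries, but the glh genes are related in sequence and a wrong share of reads between them cannot be seen in TPM.

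Levels are given as scaled TPM. TPM is a transcript level per length and per library total, and each library was further divided by its median ratio to the geometric mean library, over genes above 0 in all 15 libraries. For the tests the factors were computed anew over the libraries of each fit. The scaling factors ran from 0.875 to 0.997 in IFE-1 RIP, 0.910 to 1.04 in IFE-3 RIP, 1.05 to 1.27 in mKate control RIP, 1.21 to 1.36 in GFP control RIP and 0.713 to 0.818 in total RNA. The 10 highest genes of the table held 62.5 to 71.6% of the TPM in IFE-1 RIP, 61.8 to 65.8% in IFE-3 RIP, 71.1 to 75.1% in mKate control RIP, 57.8 to 71.6% in GFP control RIP and 75.1 to 76.0% in total RNA. TPM keeps no sequencing depth, so the depth behind each value is unknown. GFP control RIP replicate 2 had the highest level of all 8 genes in its group, and so had total RNA replicate 1 in its own. mKate control RIP replicate 1 had the lowest of all 8 in its group. The main results against these controls and against total RNA are therefore also given without those libraries.

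The 8 mRNAs fell into 2 abundance classes. In total RNA the repressor mRNAs were high, with cgh-1 at 343 ± 20.6 and car-1 at 328 ± 27.0 scaled TPM (SD, n = 3). The scaffold and helicase mRNAs were lower by about an order of magnitude or more. pgl-1 stood at 32.9 ± 3.15, glh-1 at 24.4 ± 3.21 and pgl-3 at 14.6 ± 1.43 scaled TPM in total RNA (SD, n = 3). glh-4 stood at 8.53 ± 0.888, glh-2 at 6.40 ± 1.05 and glh-3 at 4.85 ± 0.672 scaled TPM there (SD, n = 3). The ranges of neighbours in this order did not overlap in total RNA, except those of cgh-1 and car-1. Across all libraries the order varied little. pgl-1 was above glh-1, and glh-4 above glh-2, in 15 of 15 libraries each, while cgh-1 was above car-1 in 10 of 15.

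The group with the highest mean level depended on the scaling. With scaled TPM it was total RNA for 8 of 8 genes, and with TPM as deposited for 2 of 8, cgh-1 and car-1. For pgl-1 and all 4 glh genes it was then mKate control RIP, and for pgl-3 GFP control RIP.

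**Figure D1:**
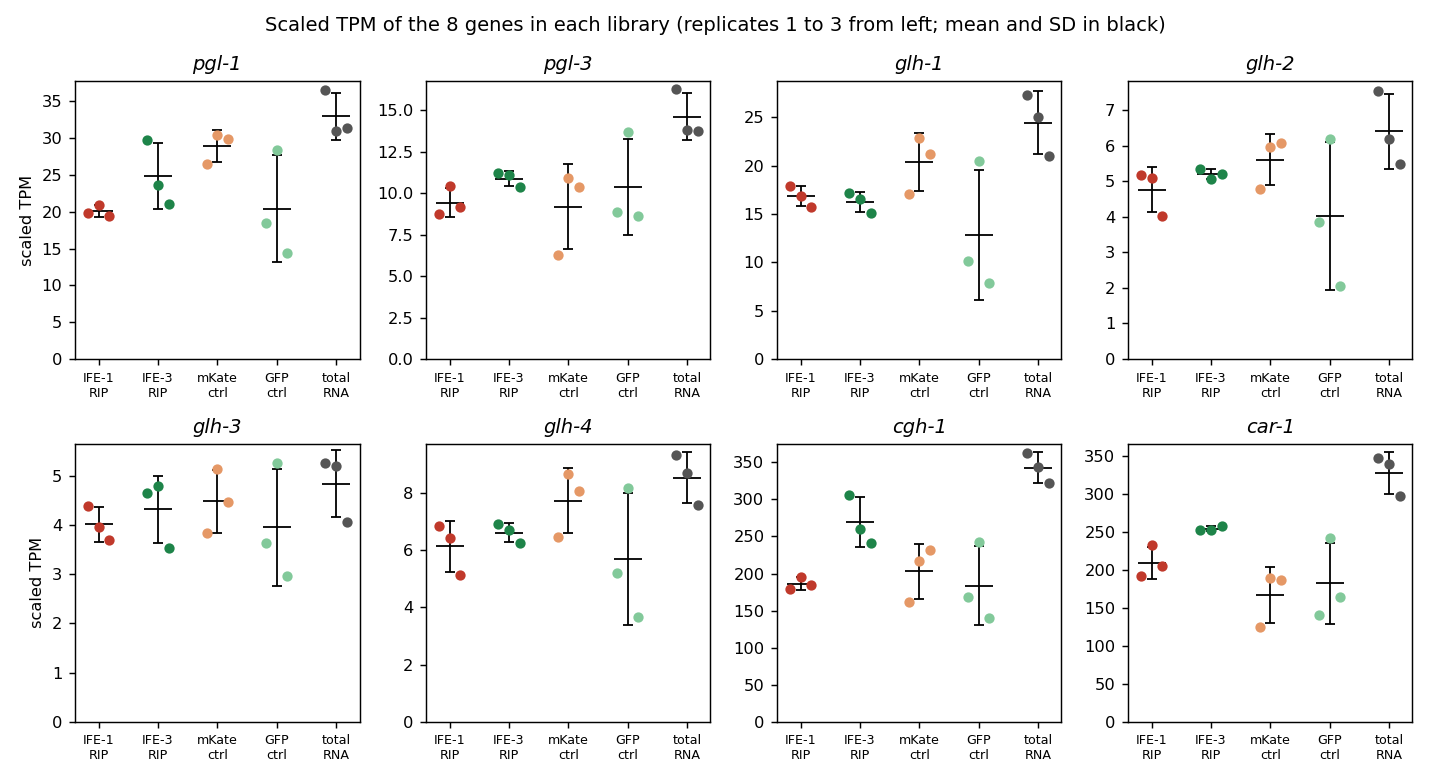
Scaled TPM (vertical axis of each panel, starting at 0) of the 8 genes in the 3 libraries of each group, with group mean and SD in black. For all 8 genes the mean scaled TPM is highest in total RNA (for 2 of 8 with TPM as deposited). In GFP control RIP replicate 2 (middle point) lies above replicates 1 and 3, and in total RNA replicate 1 (left point) is the highest.

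In the IFE-1 pull-down, all 8 mRNAs in scaled TPM lay below their level in total RNA, and 5 of them fell: both scaffold mRNAs, glh-1, cgh-1 and car-1. The decrease was largest for cgh-1, which stood at 0.544-fold of its total RNA level, and car-1 and both pgl mRNAs stood at 0.623-fold to 0.670-fold. glh-2, glh-3 and glh-4 did not pass the test. Genes were called at a Benjamini-Hochberg adjusted p under 0.05 in limma over 12099 genes, where 6.07% were called lower. 5 of 8 is a larger share than that of all genes, many of which are low. With a filter at 5 TPM, 867 of 5965 genes were called lower, and 6 of 7 members tested. The members are correlated over the 15 libraries (Pearson r from 0.540 to 0.964), so their calls are not separate observations. The median log2 fold change was -0.54 over the 8 genes and -0.0054 over all genes tested, of which 50.8% were below 0.

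cgh-1 had 179, 196 and 184 scaled TPM in IFE-1 RIP, against 363, 344 and 322 in total RNA. Every IFE-1 RIP library was thus far below every total RNA library. The log2 fold change was -0.88 ± 0.12 (SE), with a limma adjusted p of 0.00492, and only 0.901% of all genes tested had a fold change as low. car-1 had 192, 233 and 205 scaled TPM in IFE-1 RIP, against 347, 339 and 297 in total RNA. These groups did not overlap either, and the log2 fold change was -0.65 ± 0.12 (SE, limma adjusted p = 0.0121).

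For the scaffold genes the picture was alike. pgl-1 had 19.8, 21.0 and 19.4 scaled TPM in IFE-1 RIP, against 36.6, 30.9 and 31.3 in total RNA. The IFE-1 RIP libraries were close to each other and all below total RNA (log2 fold change -0.68 ± 0.14 SE, with a limma adjusted p of 0.0166). pgl-3 had 8.72, 10.4 and 9.16 scaled TPM in IFE-1 RIP, against 16.3, 13.8 and 13.7 in total RNA. Its log2 fold change was -0.58 ± 0.10 (SE, limma adjusted p = 0.0121), again with no overlap.

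Among the helicases only glh-1 was called. glh-1 had 17.9, 16.9 and 15.8 scaled TPM in IFE-1 RIP, against 27.3, 25.0 and 21.0 in total RNA. The fit gave -0.51 ± 0.12 (log2 fold change ± SE), with a limma adjusted p of 0.0289. glh-4, which acts redundantly with glh-1 in fertility, was at 6.14 ± 0.896 in IFE-1 RIP, against 8.53 ± 0.888 in total RNA (SD, n = 3 each). Its groups did not overlap, but its log2 fold change of -0.42 ± 0.12 (SE) missed the threshold with a limma adjusted p of 0.0616. glh-4 passed with a filter at 5 TPM and after quantile normalization (limma adjusted p = 0.0449 and 0.0497). glh-2, the closest relative of glh-1, had a log2 fold change of -0.35 (95% confidence interval -0.64 to -0.066, limma adjusted p = 0.117). glh-3 had the smallest difference, -0.21 (95% confidence interval -0.51 to 0.087, limma adjusted p = 0.347), and its groups overlapped. Libraries did not overlap, with IFE-1 RIP lower, in 7 of 8 members and in 19.6% of all genes tested.

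These decreases are relative to the other RNAs of the same library, and the size depends on how libraries are scaled. Left as deposited, TPM moved the median of all genes to 0.21, and 7 of 8 members still had a log2 fold change below 0. In that scaling cgh-1 was at -0.59 and remained called (limma adjusted p = 0.0252), while the calls of pgl-1, pgl-3, glh-1 and car-1 were lost and glh-3 turned to 0.018. Of all calls 40.4% were higher in IFE-1 RIP with scaled libraries, against 88.1% with TPM as deposited. Without total RNA replicate 1, 2 members were called, and pgl-1, glh-1 and car-1 lost their calls. In that fit 271 of 11973 genes were called lower. Without IFE-1 RIP replicate 3, 3 members were called, and pgl-1 and glh-1 lost their calls. There 410 of 11730 genes were called lower. The glh-1 call was also lost without IFE-1 RIP replicates 1 and 2, IFE-3 RIP replicate 2 and total RNA replicate 2 in turn, with limma adjusted p up to 0.104 over all such fits. When all 15 libraries were fitted together 0 of 8 were called by limma, where 124 of 14308 genes were called lower. The limma adjusted p of cgh-1 was then 0.0603. In that fit 4 of 8 members had an unadjusted p under 0.05, as had 2238 of 14308 genes.

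**Figure D2:**
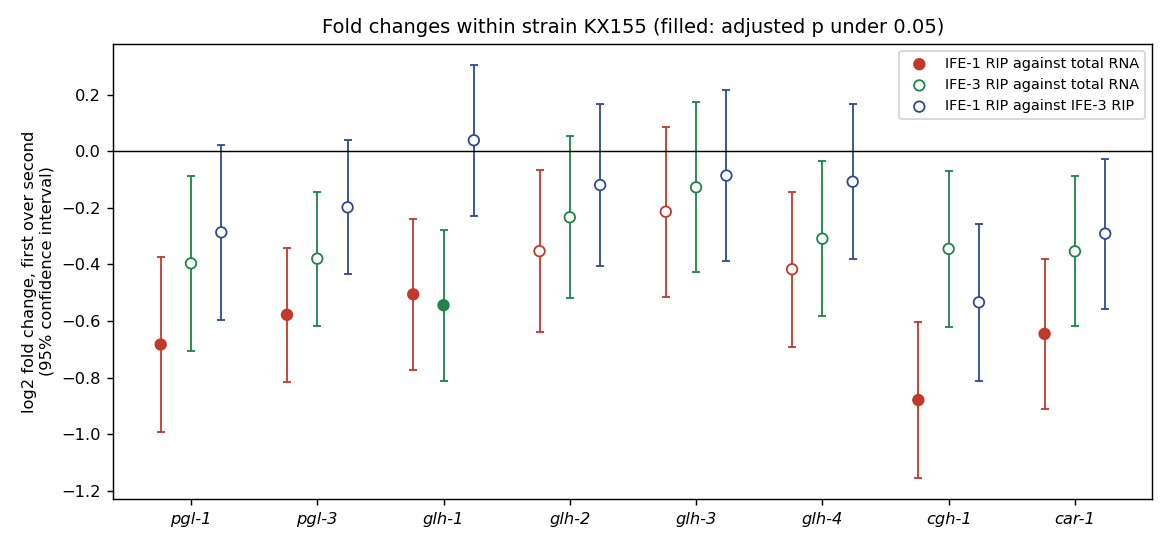
Log2 fold changes (vertical axis) with 95% confidence intervals for the 8 genes in the 3 comparisons within strain KX155, where filled points have an adjusted p under 0.05. With scaled libraries all points for IFE-1 RIP and IFE-3 RIP against total RNA lie below 0 (7 and 6 of 8 with TPM as deposited), and cgh-1 has the lowest point, at -0.88 in IFE-1 RIP.

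In the IFE-3 pull-down the 8 mRNAs in scaled TPM again lay below total RNA, by less than in IFE-1 RIP for every gene except glh-1. Only glh-1 was called lower, at 0.686-fold of total RNA. This comparison uses the same total RNA libraries as the one for IFE-1, so their values move together. By limma 5.63% of 12099 genes were called lower, and 1 of 8 members was. The median log2 fold change was -0.35 over the 8 genes and 0.028 over all genes tested, of which 46.6% were below 0.

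glh-1 had 17.1, 16.5 and 15.1 scaled TPM in IFE-3 RIP, against 27.3, 25.0 and 21.0 in total RNA. The fit gave -0.54 ± 0.12 (log2 fold change ± SE), with a limma adjusted p of 0.0241. pgl-3 had 11.2, 11.1 and 10.4 scaled TPM in IFE-3 RIP, against 16.3, 13.8 and 13.7 in total RNA. All IFE-3 RIP values were below total RNA for this gene, and its limma adjusted p was 0.0502 with a log2 fold change of -0.38 ± 0.10 (SE). pgl-1 averaged 24.8 ± 4.48 over IFE-3 RIP libraries, against 32.9 ± 3.15 over total RNA libraries (SD, n = 3 each), and its log2 fold change was -0.40 ± 0.14 (SE, limma adjusted p = 0.0983).

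The repressor mRNAs were nearer to total RNA in this pull-down. cgh-1 had 306, 260 and 241 scaled TPM in IFE-3 RIP, against 363, 344 and 322 in total RNA. The fit gave -0.35 ± 0.12 (log2 fold change ± SE), with a limma adjusted p of 0.106. car-1 had 252, 252 and 258 scaled TPM in IFE-3 RIP, against 347, 339 and 297 in total RNA. The fit gave -0.35 ± 0.12 (log2 fold change ± SE), with a limma adjusted p of 0.0877. Neither gene's groups overlapped, although neither passed the test. glh-2, glh-3 and glh-4 had log2 fold changes of -0.23, -0.13 and -0.31, with limma adjusted p of 0.279, 0.590 and 0.139. Libraries did not overlap, with IFE-3 RIP lower, in 7 of 8 members and in 15.1% of all genes tested.

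The single call was not stable. It was lost without IFE-3 RIP replicate 2, total RNA replicate 1 and total RNA replicate 2 in turn (limma adjusted p from 0.0782 to 0.0850). Without IFE-3 RIP replicate 1, 2 members were called, glh-1 and pgl-1 (limma adjusted p = 0.0457 for pgl-1). In that fit 365 of 11798 genes were called lower. Left as deposited, TPM moved the median of all genes to 0.27, 0 of 8 were called and 0 had an unadjusted p under 0.05 by limma, and glh-2 and glh-3 turned to 0.044 and 0.14. The members' median was then -0.022, with cgh-1 at -0.015 and car-1 at -0.024. Of all calls 49.8% were higher in IFE-3 RIP with scaled libraries, against 94.2% with TPM as deposited.

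The paralogs were then compared directly, IFE-1 RIP over IFE-3 RIP. The batch in the labels names the trap, so the trap and the paralog cannot be told apart here. The member furthest from equal was cgh-1, which was at 186 ± 8.74 scaled TPM in IFE-1 RIP, against 269 ± 33.5 in IFE-3 RIP (SD, n = 3 each). Its fold was 0.691, its groups did not overlap, and its log2 fold change was -0.53 ± 0.12 (SE). Without a block this missed the threshold (limma adjusted p = 0.0708), and 0 of 8 members were called lower where 1.4% of all genes were. 2 of 8 had an unadjusted p under 0.05 in that fit, against 16.6% of all genes.

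Same-numbered libraries of this comparison were treated as pairs, by a rule applied to these same data (given under processing). With the replicate block cgh-1 was called (limma adjusted p = 0.0447), as were 4.06% of all genes in this direction. Relative to IFE-3 RIP of the same number, cgh-1 stood at 0.583, 0.753 and 0.763 in IFE-1 RIP replicates 1, 2 and 3, so it was lower in 3 of 3. Its limma adjusted p in the alternatives ran from 0.0306, without IFE-3 RIP replicate 3, to 0.382, when all 15 libraries were fitted together.

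car-1, the partner of cgh-1, had 192, 233 and 205 scaled TPM in IFE-1 RIP, against 252, 252 and 258 in IFE-3 RIP. No libraries overlapped, and the log2 fold change was -0.29 ± 0.12 (SE, limma adjusted p = 0.256). pgl-1 had no overlap either, with 19.8, 21.0 and 19.4 in IFE-1 RIP, against 29.7, 23.6 and 21.0 in IFE-3 RIP, and its log2 fold change was -0.29 ± 0.14 (SE, limma adjusted p = 0.340). Without IFE-3 RIP replicate 1 it was -0.15 (limma adjusted p = 0.765). The 2 nearest pgl-1 values of these groups, 21.0 in each after rounding, were 20.96 for IFE-1 RIP and 20.99 for IFE-3 RIP. Libraries did not overlap, with IFE-1 RIP lower, in 3 of 8 members and in 14.1% of all genes tested.

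For the other members no difference was detectable. The 95% confidence intervals of the log2 fold change were -0.44 to 0.039 for pgl-3 and -0.23 to 0.31 for glh-1. They were -0.41 to 0.17 for glh-2, -0.39 to 0.21 for glh-3 and -0.38 to 0.17 for glh-4. The glh-1 estimate of 0.038 turned to -0.000037 with TPM as deposited.

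The control traps hold RNA from the same kinds of beads, but from other strains, which carry mKate::PH or GFP::PH rather than a tagged eIF4E. Per the series' design text, the authors left these libraries out for poor mRNA representation. Against mKate control RIP, pgl-1 had the lowest log2 fold change of the members with scaled libraries or TPM as deposited. After quantile normalization pgl-1 was at -0.71 and cgh-1 was lower, at -0.75. pgl-1 had 19.8, 21.0 and 19.4 scaled TPM in IFE-1 RIP, against 26.4, 30.4 and 29.9 in mKate control RIP, so the groups were apart, as in 17.3% of all genes in this direction. Its log2 fold change was -0.50 ± 0.12 (SE), with a limma adjusted p of 0.0827 without a block and 0.0475 with the replicate block. Same-numbered libraries were treated as pairs by the same rule. The lowest same-numbered correlation was 0.152 here, against a highest unlike-numbered one of 0.133. By limma 0.163% of 12238 genes were called lower without the block and 4.15% with it. Without the block 0 of 8 members were called and with it 1 of 8, and 1 of 8 had an unadjusted p under 0.05 without the block, against 27.4% of all genes. Without mKate control RIP replicate 1 pgl-1 was at -0.56 (limma adjusted p = 0.144). The members' median was then -0.27, against -0.16 with that library. In that fit 3 of 8 members had an unadjusted p under 0.05, as had 2440 of 11652 genes, and 0 members were called.

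For cgh-1, the gene furthest below total RNA in IFE-1 RIP, the difference from the control trap passed the test under no scaling, but its size depended on the scaling. It had 179, 196 and 184 scaled TPM in IFE-1 RIP, against 161, 217 and 231 in mKate control RIP. These values overlap, and the log2 fold change was -0.11 with a 95% confidence interval of -0.57 to 0.36 (limma adjusted p = 0.748). Without mKate control RIP replicate 1 it was -0.26 (limma adjusted p = 0.372), and without replicate 3 of that control it was -0.0063. In deposited TPM cgh-1 had 175, 171 and 184 TPM in IFE-1 RIP, against 205, 244 and 244 in mKate control RIP, with no overlap. The log2 fold change was then -0.38 (limma adjusted p = 0.145), and after quantile normalization it was -0.75 (limma adjusted p = 0.0760).

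car-1 had a positive estimate. It had 192, 233 and 205 scaled TPM in IFE-1 RIP, against 125, 189 and 187 in mKate control RIP, with no overlap, as in 16.7% of all genes in this direction. The log2 fold change was 0.35 ± 0.22 (SE, limma adjusted p = 0.334), it was 0.16 without mKate control RIP replicate 1, and it turned to -0.30 after quantile normalization. pgl-3 stood at 0.068 ± 0.21 (SE), and it turned to -0.16 without mKate control RIP replicate 1 and to -0.18 with TPM as deposited. The glh genes ran from -0.29 for glh-4 to -0.12 for glh-3, and for all 4 the groups overlapped. Unscaled TPM moved the median of all genes to -0.20 and the members' median was -0.41, against -0.16 with scaled libraries. In that scaling 6 of 8 members had an unadjusted p under 0.05, as had 3952 of 12238 genes. By limma 0 of 8 were called (smallest adjusted p = 0.0603, for pgl-1). Of all calls 65.5% were higher in IFE-1 RIP with scaled libraries, against 43.9% with TPM as deposited.

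Against GFP control RIP all 8 members had a positive log2 fold change in IFE-3 RIP with scaled libraries, as had 52% of all genes, and none passed the test. By limma 0 of 8 members were called where 0.0653% of 12249 genes were called higher, and 0 of 8 had an unadjusted p under 0.05, against 12.5% of all genes. cgh-1 had 306, 260 and 241 scaled TPM in IFE-3 RIP, against 168, 243 and 140 in GFP control RIP, which overlap by 1 library. Same-numbered libraries were treated as pairs here too. Over GFP control RIP of the same number cgh-1 stood at 1.83, 1.07 and 1.72 in IFE-3 RIP replicates 1, 2 and 3, higher in 3 of 3. Its log2 fold change was 0.59 ± 0.30 (SE, limma adjusted p = 0.501), and after quantile normalization it was 0.19. car-1 had 252, 252 and 258 scaled TPM in IFE-3 RIP, against 140, 243 and 164 in GFP control RIP. Its groups did not overlap, as in 11.7% of all genes tested in this direction, and its log2 fold change was 0.52 ± 0.29 (SE, limma adjusted p = 0.544). Within pairs car-1 stood at 1.80, 1.04 and 1.57, also higher in 3 of 3, whereas the other 6 members were lower in IFE-3 RIP in pair 2. With the replicate block 0 of 8 members were called (smallest limma adjusted p = 0.422).

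The GFP control RIP libraries varied widely. glh-1 had 17.1, 16.5 and 15.1 scaled TPM in IFE-3 RIP, against 10.2, 20.5 and 7.88 in GFP control RIP. glh-2 had 5.34, 5.06 and 5.21 in IFE-3 RIP, against 3.86, 6.20 and 2.04 in GFP control RIP. Without GFP control RIP replicate 2 the median log2 fold change of the members was 0.64, against 0.36 with it. In that fit 5 of 8 had an unadjusted p under 0.05, as had 2056 of 11682 genes. Of all genes 221 were then called higher, against 8 with all libraries. cgh-1 was then at 0.81 and car-1 at 0.75. The smallest limma adjusted p of a member was then 0.128, so 0 of 8 were called without that library too. Without GFP control RIP replicate 3 the median was 0.071 and 3 members were below 0. Unscaled TPM moved the median of all genes to -0.29, and 4 of 8 members were above 0 and 4 below. Of all calls 72.7% were higher in IFE-3 RIP with scaled libraries, against 50% with TPM as deposited, out of 11 and 4 calls.

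**Figure D3:**
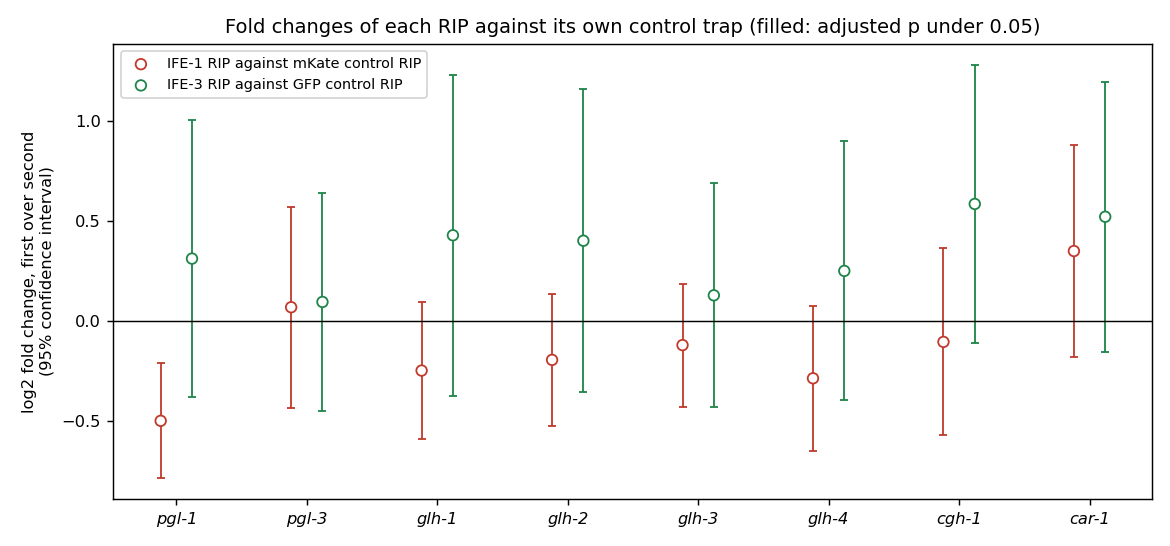
Log2 fold changes (vertical axis) with 95% confidence intervals of IFE-1 RIP over mKate control RIP and of IFE-3 RIP over GFP control RIP for the 8 genes, where open points did not reach an adjusted p under 0.05. No point is filled, the IFE-1 RIP points run from -0.50 for pgl-1 to 0.35 for car-1, and the intervals for IFE-3 RIP are wider.

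The paralog difference less its control traps was tested as an interaction in a fit of 12 libraries. It takes IFE-1 RIP over mKate control RIP and subtracts IFE-3 RIP over GFP control RIP. 0 of 8 members were called by limma and 1 had an unadjusted p under 0.05, pgl-1, against 0.0921% of 14114 genes called lower and 16.8% with an unadjusted p under 0.05. The estimate for pgl-1 was -0.81 ± 0.32 on the log2 scale (SE, limma adjusted p = 0.243, and 0.123 with the replicate block). For cgh-1 it was -0.68 ± 0.34 (SE, limma adjusted p = 0.332). The estimate for glh-1 was -0.67 with all libraries. Without GFP control RIP replicate 2, glh-1 was called, at -1.04 (limma adjusted p = 0.0492), as were 167 of 13886 genes in this direction. Without GFP control RIP replicate 3 glh-1 was at -0.39 (limma adjusted p = 0.632). The members' median was -0.84 and -0.27 in these fits, against -0.56 with all libraries. pgl-3 was nearest to 0, with a 95% confidence interval of -0.71 to 0.67.

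Set side by side against the same total RNA libraries, the control traps in scaled TPM were below total RNA as well. The differences of mean log2(scaled TPM + 1) for cgh-1 were -0.88 for IFE-1 RIP, -0.35 for IFE-3 RIP, -0.77 for mKate control RIP and -0.93 for GFP control RIP. For car-1 they were -0.64, -0.36, -0.99 and -0.88 in the same groups. With TPM as deposited the differences for cgh-1 were -0.59 for IFE-1 RIP, -0.015 for IFE-3 RIP, -0.21 for mKate control RIP and -0.22 for GFP control RIP. In both scalings IFE-3 RIP was the trap group nearest to total RNA for cgh-1 and car-1. For pgl-1 the values were -0.68 for IFE-1 RIP, -0.41 for IFE-3 RIP, -0.18 for mKate control RIP and -0.71 for GFP control RIP. With TPM as deposited the pgl-1 difference in mKate control RIP turned to 0.36, with all libraries above total RNA.

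The median over the 8 genes was -0.54 for IFE-1 RIP, -0.36 for IFE-3 RIP, -0.22 for mKate control RIP and -0.67 for GFP control RIP, where the median of all genes lay from 0.0070 to 0.024. All 8 were below 0 in each trap group, as were 46.3% of all genes for IFE-1 RIP, 45.1% for IFE-3 RIP, 48% for mKate control RIP and 46.7% for GFP control RIP. Libraries did not overlap with total RNA, and were lower, in 4 of 8 members in mKate control RIP, where 18.3% of all genes did so. In GFP control RIP this held for 5 of 8, where 11.6% of all genes did so. With TPM as deposited 3 of 8 members were below 0 in mKate control RIP and 5 of 8 in GFP control RIP, so the direction against total RNA in the control traps was not independent of the scaling. The controls come from other strains than the total RNA, and strain and trap cannot be told apart in this setting, for which no test was made. The authors left the control libraries out of their analysis because of poor mRNA representation, per the series' design text.

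**Figure D4:**
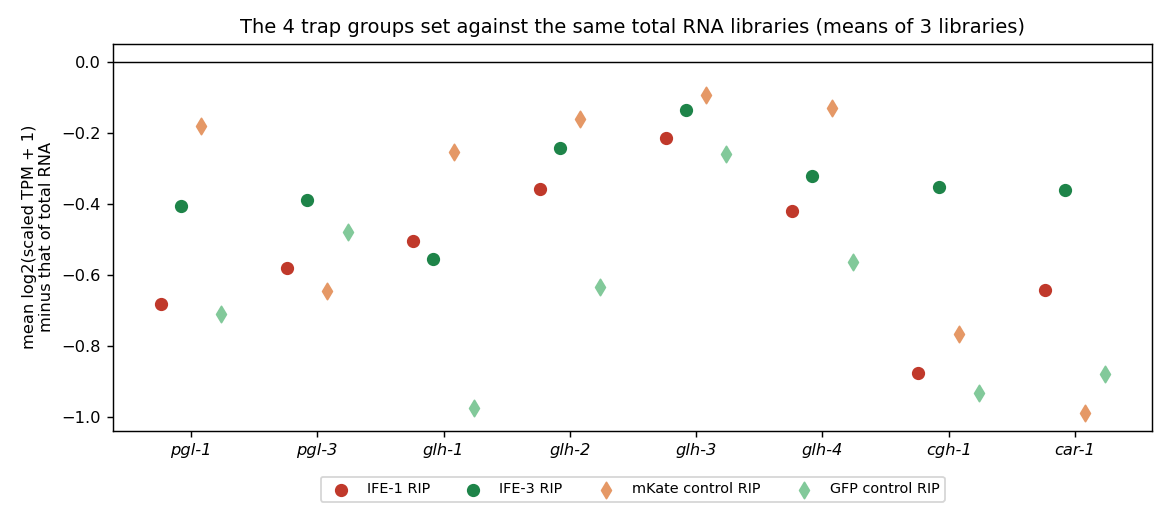
Mean log2(scaled TPM + 1) of each trap group minus that of total RNA (vertical axis) for the 8 genes, with circles for the IFE RIPs and diamonds for the control RIPs, each a mean of 3 libraries. All points in scaled TPM lie below 0, and for cgh-1 the IFE-1 RIP point (-0.88) lies between the control points (-0.77 and -0.93), whereas with TPM as deposited it was below both (-0.59 against -0.21 and -0.22) and 5 of 8 members in mKate control RIP were above 0.

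Ratios between members in the same library do not change when a library is multiplied by a single factor, as with scaled or deposited TPM, but they do change with quantile normalization. After quantile normalization the log2 fold change of IFE-1 RIP over mKate control RIP was -0.75 for cgh-1 and -0.35 for glh-1, against -0.11 and -0.25 with scaled libraries, so the difference between these genes turned. The cgh-1 over car-1 ratio was 0.932, 0.840 and 0.899 in IFE-1 RIP, against 1.04, 1.01 and 1.08 in total RNA. In IFE-3 RIP it was 1.21, 1.03 and 0.935. All IFE-1 RIP values were below all of total RNA and all of IFE-3 RIP, with an exact two-sided permutation p of 0.1 for each, the smallest that 3 against 3 libraries allow. In mKate control RIP the ratio was higher, at 1.29, 1.14 and 1.24, and in GFP control RIP it was 1.20, 1.00 and 0.853.

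The cgh-1 over glh-1 ratio had lower means in both groups on RFP trap beads. It was 11.1 ± 0.953 in IFE-1 RIP, against 9.95 ± 0.837 in mKate control RIP, both on RFP trap beads (SD, n = 3 each). It was 16.5 ± 1.18 in IFE-3 RIP, against 15.4 ± 3.11 in GFP control RIP, both on GFP trap beads, and 14.1 ± 1.07 in total RNA (SD, n = 3 each). IFE-1 RIP was below IFE-3 RIP in all libraries (exact permutation p = 0.1), and each RIP overlapped its own control. Of 30 such tests over 6 ratios and 5 comparisons, 15 reached the smallest possible exact permutation p, and the smallest adjusted p was 0.2.

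**Figure D5:**
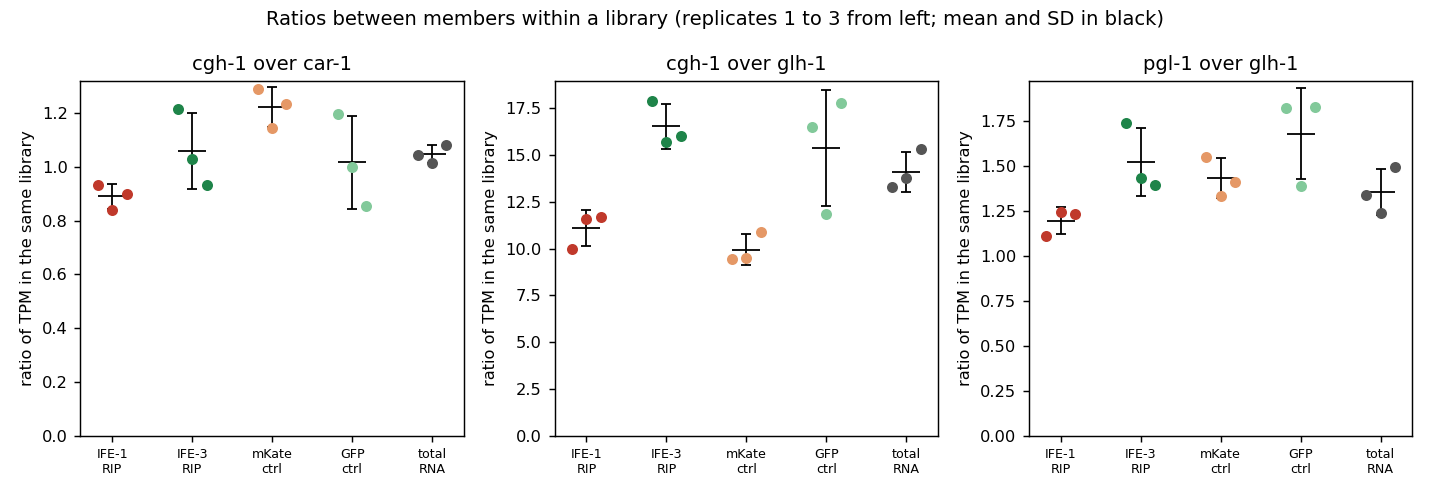
Ratio of TPM between pairs of members in the same library (vertical axes, starting at 0) by group, with mean and SD in black. The cgh-1 over glh-1 ratio is 11.1 for IFE-1 RIP and 9.95 for mKate control RIP, against 16.5 in IFE-3 RIP, 15.4 in GFP control RIP and 14.1 in total RNA.

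Over the 15 libraries the glh genes and pgl-1 varied alike, as did pgl-3, cgh-1 and car-1, but these sets were not clearly apart. On log2(scaled TPM + 1), Pearson correlations between the 4 glh genes were 0.847 or above, and that of pgl-1 with glh-4 was 0.919. pgl-3 was most like car-1 (0.898), and cgh-1 was most like car-1 too (0.893). Between the sets, pgl-1 was correlated with cgh-1 by 0.808, close to its 0.812 with glh-3. cgh-1 was correlated with the glh genes by 0.698 to 0.752. pgl-1 and pgl-3 were correlated by 0.640, and the lowest of the 28 correlations between members was 0.540, between pgl-1 and car-1. The points share libraries, scaling factors and group differences, so these values describe the 15 libraries only. Among genes whose mean reached 10 scaled TPM, the gene most like cgh-1 was WBGene00009113 (r = 0.979). WBGene00016002 was the most alike for glh-1 (r = 0.938) and for glh-4 (r = 0.974). For the other members the highest r ran from 0.925 to 0.976.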

How the data were processed

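The deposited table holds TPM values per gene for 15 libraries. Named in the submitters' processing notes are DESeq2 1.34.0, kallisto 0.48.0, the build WBcel235 and R 4.4.1, without their roles or order. How transcripts were summed to genes, and with which annotation, is not given in the sources used here. Since TPM fixes the sum of each library, depth and amount of RNA are unknown and a rise of a few abundant RNAs lowers all others.

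Libraries were scaled by the median ratio to the geometric mean. Genes reaching 1 TPM in 3 or more libraries of a fit, among them all 8 members, were tested on log2(scaled TPM + 1), which understates changes of low genes. limma 3.58.1 in R 4.3.3 (lmFit, eBayes with trend, two-sided) was fitted over the 3 groups of strain KX155, over each RIP with its control, and over both pairs for the interaction, and p-values were adjusted over all genes tested. The script was tested on simulated data. Ratios were tested by exact permutation. Strain separates each control from every other group, and trap or lysate separates the 3 groups of strain KX155.

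Members and lists were chosen with earlier results of these data known. The rule named the 8 members and, for each, the gene most like it, of which 2 IDs are printed. Lists of other germ granule genes, decapping and repression genes and cell type markers could not be matched to WormBase IDs and were not used, so the tissue and the tagged genes were not checked.

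Same-numbered libraries were treated as pairs where every same-numbered correlation of deviations from group means exceeded 0.1: 0.149 to 0.396 for IFE-1 RIP with IFE-3 RIP, 0.152 to 0.353 for IFE-1 RIP with mKate control RIP, and 0.173 to 0.273 for IFE-3 RIP with GFP control RIP. The highest unlike-numbered correlations were 0.107, 0.133 and 0.0862 in the same order, so the margins were small. The pairing comes from the data, and the controls are of other strains. Alternatives changed the pseudocount, filter, scaling, block, libraries in the fit and left-out replicates.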

Additional observations from a re-analysis of the deposited data

How the results depend on the processing

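Of 810 member values under the alternatives, 742 kept their direction and side of the threshold, 24 lost a call, 16 gained one and 28 changed sign. Most of these values were uncalled in the main fit, so they had no call to lose. For IFE-1 RIP against total RNA the call was kept in 17 of 18 alternatives for cgh-1 and 16 for pgl-3. It was kept in 15 for car-1, 14 for pgl-1 and 9 for glh-1. For IFE-3 RIP against total RNA glh-1 kept its call in 13 of 18. For IFE-1 RIP against total RNA 5 members were called, against 1 with TPM as deposited, where 153 of 12099 genes were called lower. With all 15 libraries fitted together 0 members were called, and 124 of 14308 genes were called lower. With a replicate left out 2 to 5 members were called, and 271 to 801 genes were called lower. After quantile normalization 6 members were called, and 869 of 12099 genes were called lower. With a filter at 5 TPM it was 6, of 7 tested, and 867 of 5965 genes were called lower. For IFE-3 RIP against total RNA 1 was called, against 2 with a pseudocount of 5 or a filter at 5 TPM. There 706 of 12099 and 708 of 5965 genes were called lower. It was 0 with TPM as deposited or with all 15 libraries fitted together (159 of 12099 and 102 of 14308 genes called lower). After quantile normalization 3 members were called, and 937 of 12099 genes were called lower. With a replicate left out 0 to 2 members were called, and 182 to 688 genes were called lower. The RIPs with total RNA did not meet the rule of 0.1 for pairing (same-numbered correlations from 0.0346 to 0.154). For IFE-3 RIP, however, the same-numbered values (0.0552 to 0.130) all exceeded the highest unlike-numbered one (0.0024). For IFE-1 RIP the lowest same-numbered value was below the highest unlike-numbered one (0.0865). With the replicate block 6 and 4 members were called for IFE-1 RIP and IFE-3 RIP against total RNA, as were 10.2% and 8.65% of all genes in this direction. For IFE-1 RIP against IFE-3 RIP 0 were called, against 1 with a filter at 5 TPM, where 383 of 5965 genes were called lower. The replicate block gave 1 call there too, as for 4.06% of all genes in this direction. With a replicate left out 0 to 1 were called. The 1 call came without IFE-3 RIP replicate 3, where 844 of 11791 genes were called lower. With the replicate block 1 was called for IFE-1 RIP against mKate control RIP, where 4.15% of all genes were called lower. The block changed no member's call in the remaining comparisons. The paralog difference less its control traps had 0 to 1 calls with a replicate left out. The 1 call came without GFP control RIP replicate 2, where 167 of 13886 genes were called lower. Only the pair's libraries in the fit, an alternative chosen after seeing the data, left 4 calls for IFE-1 RIP against total RNA. In that fit 655 of 11175 genes were called lower.

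Signs turned with TPM as deposited for glh-1 in IFE-1 RIP against IFE-3 RIP (-0.000037), glh-3 in IFE-1 RIP against total RNA (0.018), glh-2 and glh-3 in IFE-3 RIP against total RNA (0.044 and 0.14), pgl-3 in IFE-1 RIP against mKate control RIP (-0.18), pgl-1, pgl-3, glh-3 and glh-4 in IFE-3 RIP against GFP control RIP (-0.055, -0.26, -0.19 and -0.081) and pgl-3 in the paralog difference (0.076). After quantile normalization they turned for car-1 in IFE-1 RIP against mKate control RIP (-0.30), pgl-3 in IFE-3 RIP against GFP control RIP (-0.0089) and pgl-3 in the paralog difference (0.077). With a replicate left out, ranges spanned 0 for glh-1 in IFE-1 RIP against IFE-3 RIP (-0.013 to 0.086), pgl-3 in IFE-1 RIP against mKate control RIP (-0.16 to 0.20), pgl-3, glh-3 and glh-4 in IFE-3 RIP against GFP control RIP (-0.032 to 0.30, -0.038 to 0.32 and -0.00016 to 0.51), and pgl-3 and car-1 in the paralog difference (-0.26 to 0.11 and -0.39 to 0.0088). All of these were uncalled, and the cause was not tested. TPM holds no depth, so no limit of detection can be given.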

Other observations

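The rank of the members within a library does not depend on a factor per library. Among genes reaching 1 TPM in 3 or more libraries, cgh-1 was at or above 97.6 to 97.9% of genes in IFE-1 RIP, 98.1 to 98.6% in IFE-3 RIP and 98.6 to 98.8% in total RNA. In mKate control RIP it was at or above 98.4 to 98.7%, which is above all IFE-1 RIP libraries. In GFP control RIP it was at or above 97.1 to 98.5%, a range that includes that of IFE-1 RIP. pgl-1 was at or above 87.3 to 88.0% in IFE-1 RIP, 87.9 to 90.7% in IFE-3 RIP and 91.1 to 92.4% in total RNA. In mKate control RIP pgl-1 was at or above 91.7 to 92.5% of genes, which is within or next to the total RNA range and above all IFE-1 RIP libraries. In GFP control RIP pgl-1 was at or above 83.3 to 91.4%, which includes the IFE-1 RIP range. car-1 was at or above 97.81 to 98.12% in IFE-1 RIP, below the 98.13 to 98.55% of mKate control RIP. In scaled TPM car-1 had instead been above that control in all IFE-1 RIP libraries.

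The pgl-1 over glh-1 ratio was 1.11, 1.24 and 1.23 in IFE-1 RIP, against 1.55, 1.33 and 1.41 in mKate control RIP and 1.74, 1.43 and 1.39 in IFE-3 RIP. IFE-1 RIP was below both other groups in all libraries (exact permutation p = 0.1 each, the smallest possible, adjusted p = 0.2). Total RNA, at 1.24 to 1.49, overlapped IFE-1 RIP (exact permutation p = 0.2, adjusted p = 0.353). The pgl-1 over pgl-3 ratio was 3.30 ± 0.804 in mKate control RIP, against 2.25 ± 0.0212 in total RNA, where it varied little (SD, n = 3 each). Replicate 1 of that control raised its mean, with 4.22 against 2.79 and 2.87 in replicates 2 and 3.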
